A study of Mus musculus with 12 samples.

Results

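The genes examined here, in the lungs of newborn mice, were 8 in number: the ligands Cxcl1, Cxcl2, Cxcl3, Cxcl5, Cxcl15, Ppbp and Pf4, and the receptor Cxcr2. They were chosen by name, as the CXC chemokines that attract neutrophils, or lie beside those that do, together with the neutrophil receptor. All 8 were among the 52550 genes of the count table and among the 15885 protein-coding genes that passed the filter on low counts and were tested. The rule uses names and no measured value, and the set was picked with earlier results of these data known.

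The lungs came from 12 C57Bl/6J mice on postnatal day 5, with 3 mice for each genotype and exposure. WT (Adm+/+) mice and Adm+/- mice, which are haplodeficient for adrenomedullin in every cell because 1 allele is lost from the germline, received intraperitoneal LPS of Escherichia coli O55:B5 at 6 mg/kg, or the same volume of PBS, in 3 daily doses. The tissue was collected 6 h after the third injection, so that all 12 animals had been injected. Libraries keep the numbers of their labels, which are 3, 4 and 5 for WT PBS, then 9, 10 and 11 for WT LPS. In Adm+/- mice they are 6, 7 and 8 under PBS and 1, 2 and 12 under LPS, and values are always given in this order.

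Cxcl1, Cxcl2, Cxcl3 and Cxcl5 are small secreted proteins that epithelial cells, endothelial cells, macrophages and neutrophils make within hours of contact with bacterial products, and that bind Cxcr2, a G protein-coupled receptor on neutrophils, to draw these cells out of the blood. Ppbp is stored in the granules of platelets and is cut to an active Cxcr2 ligand, while Pf4, from the same granules, binds mainly to heparin-like chains. Cxcl15, also called lungkine, is made by the lung epithelium of rodents. The transcription of the inducible ligands depends on NF-kappa B, and their transcripts are short-lived because of AU-rich elements.

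Levels are given as CPM, the read count scaled to a common size of the protein-coding library (trimmed mean of M values). Total counts per library ran from 22382535 to 38062873, so that 1 read was worth 0.0308 to 0.0618 CPM in different libraries. WT PBS replicate 5 and Adm+/- PBS replicate 6 stood apart. Of their counts 16.6% and 13.3% were on the noncoding gene Gm26917, against 5.42 to 7.40% in the other libraries. Protein-coding genes held 77.8% and 80.1% of their counts, against 84.3 to 87.6% in the others. Their summed fibroblast markers were at 30746 and 20473 CPM, against 6852 to 11104 CPM in the others. All WT LPS libraries held transcripts of skeletal muscle, with a summed level of 411 to 1318 CPM over the muscle markers against 9.12 to 30.8 CPM in the other libraries, and WT LPS replicates 9 and 11 held transcripts of squamous epithelium, with 3455 and 1761 CPM against 3.74 to 48.3 CPM. The part of either in the results below was not tested. Lung markers were high throughout, with type II pneumocyte markers at a summed 13752 to 17473 CPM. Adm, the targeted gene, ran from 3.96 to 7.09 CPM in WT PBS, from 4.46 to 8.15 CPM in WT LPS, from 2.87 to 4.58 CPM in Adm+/- PBS and from 3.74 to 6.28 CPM in Adm+/- LPS, so that its level did not separate the genotypes library by library.

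The 7 ligand genes lie side by side on the plus strand of mouse chromosome 5 (mm10), within chr5:90759360-90905938, a stretch of 146.6 kb with 0 other protein-coding genes. Their order is Cxcl5, Ppbp, Pf4, Cxcl3, Cxcl15, Cxcl1 and Cxcl2, so that of the inducible ligands Cxcl1 and Cxcl2 are neighbours, while Cxcl5 and Cxcl3 lie beside the platelet and epithelial ones. Cxcr2 lies apart at chr1:74153989-74161246, also on the plus strand. Of the 8, Cxcl15 alone overlaps another annotated gene, the microRNA gene Gm24322 on the other strand.

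Promoter windows, from 250 bases before to 50 bases after the RefSeq start site in GRCm38.p6, were found for 7 of the 8 genes, all but Cxcl5. The kappa B core GGAATTTCC, searched on both strands, was present in the windows of Cxcl1, Cxcl2 and Cxcl3, and in 104 of 32851 windows of the genome (0.317%). It lay at -70 to -62 from the start site of Cxcl1, at -72 to -64 from that of Cxcl3 and at -96 to -88 from that of Cxcl2, whose Gencode model starts earlier, at position 90903871. These letters were not found in the windows of Ppbp, Pf4, Cxcl15 and Cxcr2. The motif ATAAAAGG, which overlaps the TATA motif TATAAA where a T precedes it, was searched on the gene's own strand, and both the kappa B core and ATAAAAGG were present in Cxcl1, Cxcl2 and Cxcl3. ATAAAAGG was in 1.15% of all windows and TATAAA in 8.32%. TATAAA itself began at -30 in Cxcl3, at -27 in Cxcl15 and at -30 and -8 in Ppbp. The 100 bases before the first annotated base are shown for these 3 genes, which hold the kappa B core and ATAAAAGG, and for Cxcl15, a neighbour that holds TATAAA but neither of these, with the kappa B core in capitals. They are chr5:90891141-90891240 for Cxcl1, chr5:90903771-90903870 for Cxcl2, chr5:90786001-90786100 for Cxcl3 and chr5:90794434-90794533 for Cxcl15.
Cxcl1: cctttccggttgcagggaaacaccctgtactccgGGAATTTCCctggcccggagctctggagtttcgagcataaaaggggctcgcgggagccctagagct
Cxcl2: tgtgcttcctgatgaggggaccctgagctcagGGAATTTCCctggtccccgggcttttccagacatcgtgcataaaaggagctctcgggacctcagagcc
Cxcl3: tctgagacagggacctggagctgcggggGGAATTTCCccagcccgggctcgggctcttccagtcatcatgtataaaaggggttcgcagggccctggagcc
Cxcl15: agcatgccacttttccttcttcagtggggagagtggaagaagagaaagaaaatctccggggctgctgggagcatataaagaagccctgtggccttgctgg
A motif match describes the letters of the window and is not evidence of binding.

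AU-rich letters were counted at the 3′ ends of the transcripts. The pentamer ATTTA, the unit of AU-rich elements, occurred 11 times in the 734 bases of the 3′ untranslated region of Cxcl2, 7 times in the 592 bases of Cxcl1, 5 times in the 645 bases of Cxcl3 and 5 times in the 1111 bases of Cxcl5. That made 15, 11.8, 7.75 and 4.50 pentamers per kb, against a median of 1.26 per kb over 14553 tested genes with at least 100 such bases. Densities as high as these were found in 0.206%, 0.433%, 1.80% and 8.82% of those genes. Cxcl15 (1.26 per kb), Ppbp (1.52 per kb) and Cxcr2 (1.10 per kb) lay near the median, whereas Pf4, with 1 pentamer in only 123 bases, had 8.13 per kb, a density reached by 1.48% of the genes and above those of Cxcl3 and Cxcl5. The nonamer TTATTTATT was present in Cxcl1, Cxcl2 and Cxcl3 and in 7.36% of the genes.

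Cxcl2 and Cxcl3 are near copies of each other, with 89.7% identity over the coding sequence and an identical run of 110 bases in their transcripts. Identity was 75.7% between Cxcl1 and Cxcl2 and 72.7% between Cxcl1 and Cxcl3, with no identical run over 23 bases. Over the other pairs of ligands it was 36 to 56.7%. Reads from the shared run of Cxcl2 and Cxcl3 could be assigned to either gene or dropped, and how the counting treated them is not given in the sources used here, so the split between these 2 genes is less certain than their joint level.

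The first question was which of the 8 genes responded to LPS in each genotype. In WT mice 5 rose (Cxcl1, Cxcl2, Cxcl5, Ppbp and Cxcr2), and in Adm+/- mice 6 rose (these 5 and Cxcl3), while the fitted values of the others were above 0 as well. The test was edgeR's quasi-likelihood test, and a call needed an adjusted p (Benjamini-Hochberg) under 0.05 together with a log2 change of over 0.5 in size. Over all tested genes 10.5% rose in WT mice and 12.8% in Adm+/- mice. Without the 2 PBS libraries that stood apart edgeR called 5 (Pf4 in place of Cxcl1) and 8 of them. The median log2 fold change over the 8 genes was 2.44 in WT mice and 4.25 in Adm+/- mice, beside 0.01 and -0.01 over all tested genes. Every LPS library lay above every PBS library for 5 genes in WT mice and for 7 in Adm+/- mice, where this held for 18.3% and 26.6% of all genes. Because whole lung was sequenced, a gain of cells that carry a transcript and more transcript per cell cannot be told apart.

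**Figure D1:**
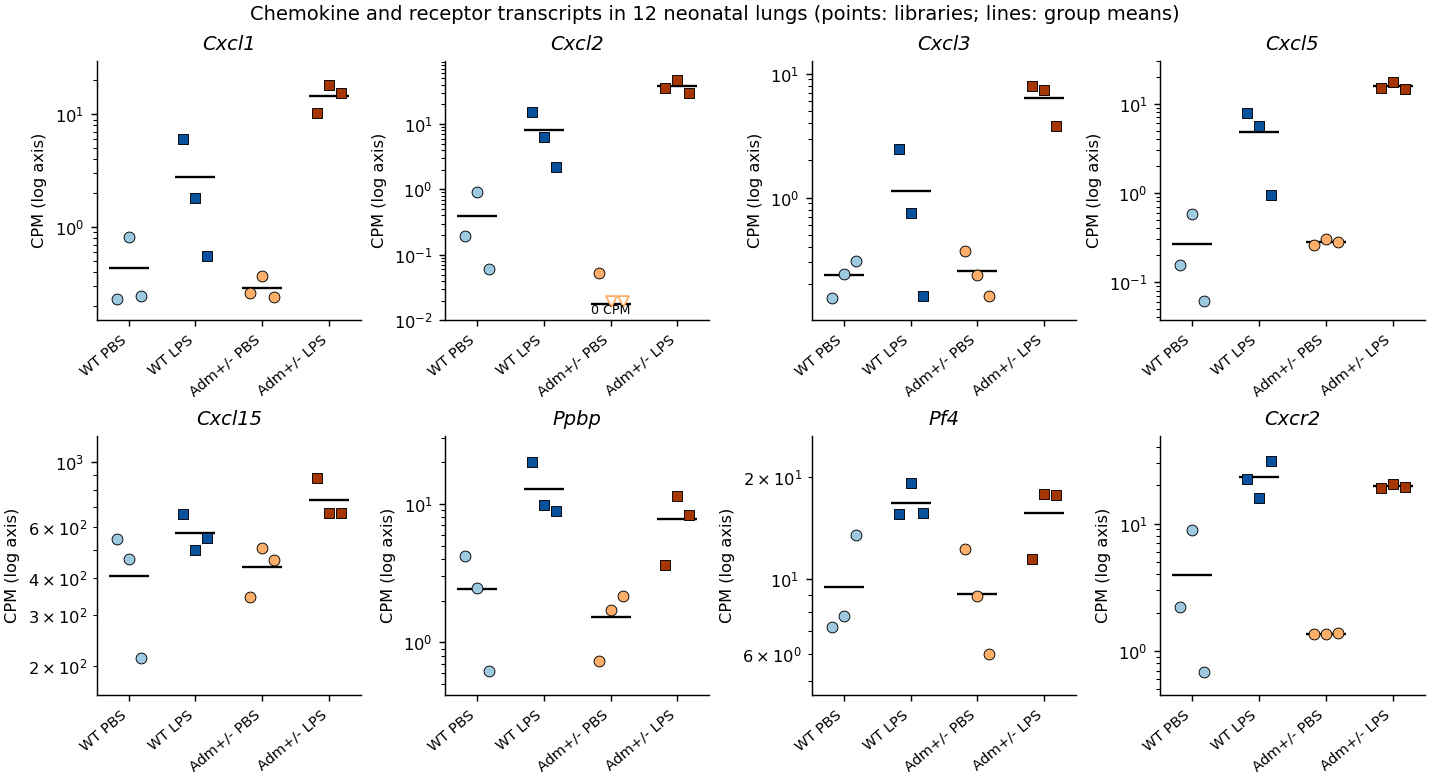
Level of each gene in CPM (log axis) in the 12 libraries, by group. Points are libraries and black lines are group means (n = 3), and open triangles mark the 2 libraries with 0 counts of Cxcl2. Adm+/- LPS libraries sit above all WT LPS libraries for Cxcl1, Cxcl2, Cxcl3, Cxcl5 and Cxcl15, and the genotypes overlap under LPS for Ppbp, Pf4 and Cxcr2.

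Cxcl1, also called KC, is a main neutrophil attractant of the mouse. It stood at 0.233, 0.825 and 0.247 CPM in WT PBS replicates 3, 4 and 5 and at 6.04, 1.83 and 0.558 CPM in WT LPS replicates 9, 10 and 11. In Adm+/- mice it was at 0.263, 0.372 and 0.239 CPM under PBS (replicates 6, 7 and 8) and at 10.2, 18.4 and 15.5 CPM under LPS (replicates 1, 2 and 12). WT LPS replicate 11 lay below WT PBS replicate 4, whereas the Adm+/- groups were far apart. Its log2 fold change was 2.70 ± 0.77 (SE) in WT mice (edgeR adjusted p = 0.0287) and 5.61 ± 0.79 in Adm+/- mice (edgeR adjusted p = 0.000414). The WT call rested on single libraries, since edgeR's adjusted p was 0.169 without WT LPS replicate 9 (log2 fold change 1.44), 0.0767 without WT PBS replicate 3 and 0.0730 without WT PBS replicate 5. It was also lost with limma-voom (adjusted p = 0.106), with glmTreat (0.0776), with only the 6 WT libraries in the fit (0.114) and without the 2 PBS libraries of high Gm26917 share (0.0828). Without WT PBS replicate 4 the value was 3.55 and without WT LPS replicate 11 it was 3.18.

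Cxcl2, or MIP-2, is made by macrophages and neutrophils among other cells. Its level in WT mice was 0.194, 0.922 and 0.0618 CPM under PBS and 15.4, 6.32 and 2.19 CPM under LPS, in the same order of libraries. In Adm+/- mice it was 0.0526, 0 and 0 CPM under PBS, which is 1 read in all, and 35.4, 47.6 and 30.3 CPM under LPS. The LPS and PBS libraries did not overlap in either genotype. In WT mice Cxcl2 rose by a log2 fold change of 4.31 ± 0.78 (edgeR adjusted p = 0.00350), with 3.39 without WT LPS replicate 9 and 5.78 without WT PBS replicate 4 as the extremes, both past the threshold. In Adm+/- mice the rise passed the test as well (edgeR adjusted p = 9.23e-05), and the reads pooled over the 3 libraries, per pooled library size, stood in a ratio of 2750 with a 95% counting interval of 493 to 108644 (exact, 2933 reads against 1). The fitted log2 value of 10.98 depends on the prior count, because a single read carries the PBS side.

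Cxcl3, the nearest copy of Cxcl2, attracts neutrophils through the same receptor. Under PBS it was at 0.155, 0.243 and 0.309 CPM in WT mice and at 0.368, 0.237 and 0.159 CPM in Adm+/- mice, or 4 to 7 reads per library. Under LPS it was at 2.47, 0.749 and 0.159 CPM in WT mice and at 8.0, 7.33 and 3.81 CPM in Adm+/- mice. The groups overlapped in WT mice, where replicate 11 stayed at the PBS level, and did not overlap in Adm+/- mice. This gave log2 fold changes of 2.33 ± 0.82 in WT mice, short of the threshold (edgeR adjusted p = 0.0622), and 4.66 ± 0.75 in Adm+/- mice (edgeR adjusted p = 0.000923). Without WT LPS replicate 11 the WT value was 2.82 and passed (edgeR adjusted p = 0.00981), as it did with DESeq2 on all libraries (adjusted p = 0.0150). Without WT LPS replicate 9 it was 0.97 (edgeR adjusted p = 0.410), and with limma-voom 1.62 (adjusted p = 0.265).

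Cxcl5, or LIX, which lung epithelium makes in abundance after endotoxin, rose in both genotypes. Levels were 0.155, 0.582 and 0.0618 CPM in WT PBS, 7.77, 5.61 and 0.956 CPM in WT LPS, 0.263, 0.304 and 0.278 CPM in Adm+/- PBS, and 15.2, 17.4 and 14.8 CPM in Adm+/- LPS. LPS libraries lay above PBS libraries throughout, and the 3 Adm+/- LPS libraries differed from each other by a factor of 1.18 at most. Cxcl5 rose by a log2 fold change of 4.12 ± 0.74 in WT mice (edgeR adjusted p = 0.00332) and 5.77 ± 0.72 in Adm+/- mice (edgeR adjusted p = 0.000216). Both calls held under every alternative run, the omission of each library in turn included, and the WT value then ran from 3.56 (without WT LPS replicate 9) to 5.29 (without WT PBS replicate 4).

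The WT LPS libraries ranked alike for all 4 inducible ligands, with replicate 9 the highest, replicate 10 between and replicate 11 the lowest. The highest exceeded the lowest 10.8-fold for Cxcl1, 7.05-fold for Cxcl2, 15.5-fold for Cxcl3 and 8.13-fold for Cxcl5, while in Adm+/- LPS the same ratios were 1.79, 1.57, 2.1 and 1.18. The muscle markers summed to 1318, 1210 and 411 CPM in replicates 9, 10 and 11, and the squamous markers to 3455, 33.4 and 1761 CPM. The inducers and regulators of the ligands, read below, summed to 1709, 1281 and 914 CPM. The part of any of these in the spread of the ligands was not tested. Over the 12 libraries the log2 levels of the 4 ligands correlated pairwise with Pearson's r of 0.88 to 0.97, a description over libraries that include both LPS and PBS.

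Levels between genes can be set side by side only per transcript length. Per kb of coding transcript, Cxcl2 made up 50.4, 47.8 and 59.4% of the summed level of Cxcl1, Cxcl2, Cxcl3 and Cxcl5 in WT LPS replicates 9, 10 and 11, and 53.0, 53.3 and 48.2% in Adm+/- LPS replicates 1, 2 and 12. The ranges of this share in the genotypes overlapped, while the sum itself ranged from 3.32 CPM per kb in WT LPS replicate 11 to 80.5 CPM per kb in Adm+/- LPS replicate 2. Among the 8 genes in Adm+/- LPS, Cxcl15 was the highest at 347 ± 56.9 CPM per kb (SD, n = 3), followed by Cxcl2 (34.1 ± 8.02), Pf4 (26.6 ± 6.17), Cxcl1 (15.4 ± 4.31), Cxcl5 (10.03 ± 0.905), Ppbp (7.16 ± 3.58), Cxcr2 (6.42 ± 0.252) and Cxcl3 (6.28 ± 2.22). In that order each gene from Cxcl2 to Cxcl3 lay within the summed SDs of its neighbour, apart from Pf4 and Cxcl1 and from Cxcl1 and Cxcl5. In WT PBS the order began with Cxcl15 (191 ± 81.3) and Pf4 (16.1 ± 5.88), and the 4 inducible ligands were at 0.457, 0.354, 0.232 and 0.169 CPM per kb for Cxcl1, Cxcl2, Cxcl3 and Cxcl5.

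**Figure D2:**
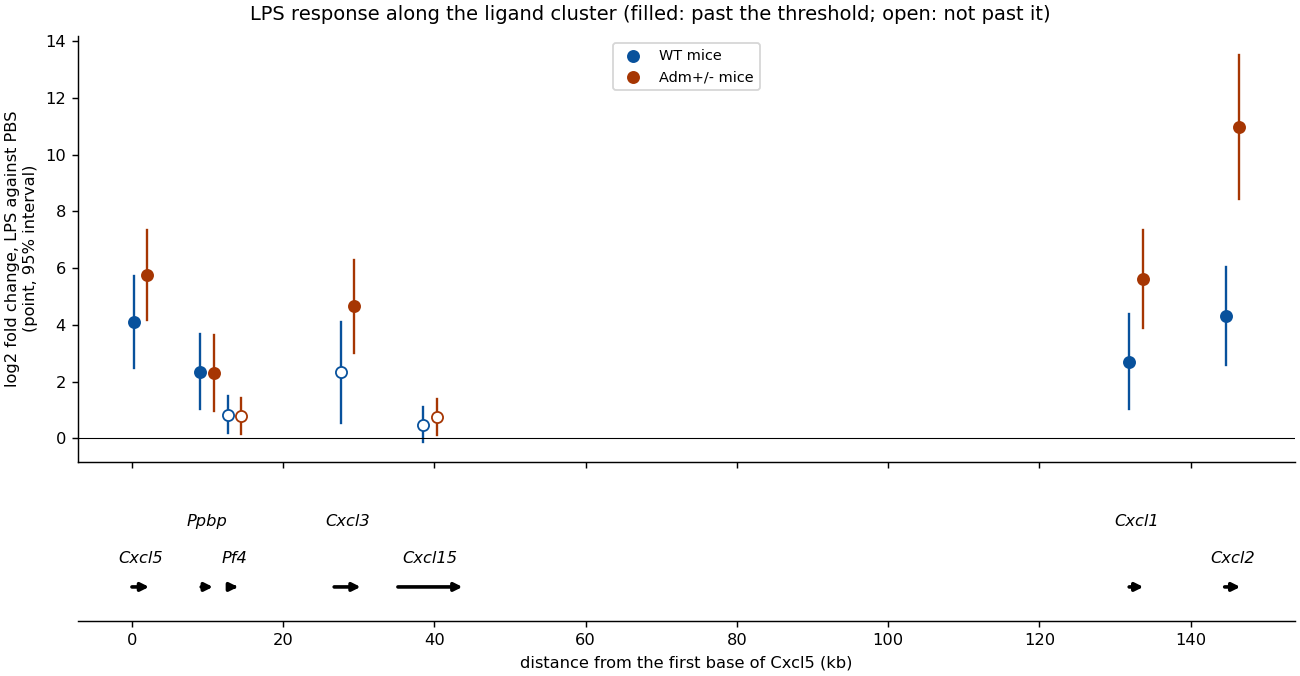
Log2 fold change of LPS against PBS with its 95% interval for the 7 ligand genes, drawn at their place along the cluster (distance from the first base of Cxcl5 in kb), for WT and Adm+/- mice. Points of the genotypes are set slightly apart, and filled points passed the threshold. The inducible ligands Cxcl5, Cxcl3, Cxcl1 and Cxcl2 lie among Ppbp, Pf4 and Cxcl15, and the lowest points belong to Pf4 and Cxcl15, whose values were 0.49 to 0.84 in both genotypes.

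Cxcl15 was the most abundant of the 8 in every library and did not pass the threshold in either genotype. It was at 545, 464 and 213 CPM in WT PBS, 665, 498 and 549 CPM in WT LPS, 344, 506 and 463 CPM in Adm+/- PBS, and 878, 671 and 666 CPM in Adm+/- LPS. The lowest levels were in the 2 PBS libraries with the high share of Gm26917, WT replicate 5 and Adm+/- replicate 6. For Cxcl15 the log2 fold change was 0.49 ± 0.28 in WT mice (edgeR adjusted p = 0.235) and 0.75 ± 0.28 in Adm+/- mice (edgeR adjusted p = 0.0644), where LPS libraries lay above PBS libraries. The WT value was 0.17 without WT PBS replicate 5 and 0.75 without WT PBS replicate 3, and did not pass in either case. The Adm+/- value passed the threshold without those 2 libraries (0.61, edgeR adjusted p = 0.0149), without WT PBS replicate 3 (0.75, edgeR adjusted p = 0.0480) or replicate 5 (0.76, edgeR adjusted p = 0.00505) alone, with DESeq2 (adjusted p = 0.0288) and with only the 6 Adm+/- libraries in the fit (edgeR adjusted p = 0.00682). The summed airway epithelial markers were at 1434 to 2394 CPM in WT PBS and 2486 to 2853 CPM in WT LPS. In Adm+/- mice they were at 1313 to 2163 CPM under PBS and 2580 to 2981 CPM under LPS. They too were lowest in WT PBS replicate 5 and Adm+/- PBS replicate 6, and their part in the Cxcl15 values was not tested. Set against the summed type II pneumocyte markers, Cxcl15 was at 13.1 to 38.1 CPM per 1000 CPM under PBS. Under LPS it was at 30.8 to 50.2 CPM per 1000 CPM. Of the 10 markers, Sftpd rose in WT mice, and in Adm+/- mice Sftpa1, Sftpd and Slc34a2 rose while Etv5 and Lpcat1 fell. The most abundant, Sftpc, was at -0.09 and -0.04, Slc34a2 at 0.34 and 0.68, and Sftpb at 0.07 and 0.16 on the log2 scale in WT and Adm+/- mice.

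Of the platelet ligands, Ppbp rose in both genotypes and Pf4 passed the threshold in neither. Ppbp was at 4.23, 2.48 and 0.618 CPM in WT PBS, 19.9, 9.81 and 8.84 CPM in WT LPS, 0.736, 1.72 and 2.15 CPM in Adm+/- PBS, and 3.63, 11.3 and 8.34 CPM in Adm+/- LPS. LPS libraries were above PBS libraries of the same genotype throughout. The log2 fold change was 2.35 ± 0.60 in WT mice (edgeR adjusted p = 0.0183) and 2.30 ± 0.62 in Adm+/- mice (edgeR adjusted p = 0.0154). The WT call was lost without WT LPS replicate 9 (1.88, edgeR adjusted p = 0.0859), with glmTreat (0.0512) and with only the 6 WT libraries in the fit (0.0575), and the Adm+/- call was lost without Adm+/- LPS replicate 2 (1.93, edgeR adjusted p = 0.0573) or Adm+/- PBS replicate 6 (1.99, edgeR adjusted p = 0.0585). The WT value was highest, at 3.01, without WT PBS replicate 3.

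Pf4 was at 7.22, 7.77 and 13.5 CPM in WT PBS, 15.6, 19.2 and 15.7 CPM in WT LPS, 12.3, 8.92 and 6.00 CPM in Adm+/- PBS, and 11.5, 17.8 and 17.7 CPM in Adm+/- LPS. The groups did not overlap in WT mice and overlapped in Adm+/- mice, where LPS replicate 1 lay below PBS replicate 6. The log2 fold change was 0.84 ± 0.29 in WT mice (edgeR adjusted p = 0.0629) and 0.79 ± 0.29 in Adm+/- mice (edgeR adjusted p = 0.0598). Both values passed the threshold with DESeq2 (adjusted p = 0.0261 and 0.0269) and with limma-voom (adjusted p = 0.0408 and 0.0393). With only the libraries of the comparison in the fit, the Adm+/- value passed and the WT value did not. Without the 2 PBS libraries of high Gm26917 share, in which Pf4 was highest among PBS libraries, they were 1.17 and 1.07 (edgeR adjusted p = 0.00957 and 0.00670). By single library, the WT value passed without WT PBS replicate 5 (edgeR adjusted p = 0.0177) or Adm+/- PBS replicate 6 (0.0471), and the Adm+/- value passed without WT PBS replicate 5 (0.0224), Adm+/- PBS replicate 6 (0.0308) or Adm+/- LPS replicate 1 (0.0467).

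The markers of megakaryocytes and platelets were read beside Ppbp and Pf4. Their sum was 124.7 to 129 CPM in WT PBS, 161 to 180 CPM in WT LPS, 114 to 126 CPM in Adm+/- PBS and 148 to 200 CPM in Adm+/- LPS, with no overlap between LPS and PBS. Of the 14 markers, Nfe2 rose in WT mice (1.2, edgeR adjusted p = 0.00145), and 4 rose in Adm+/- mice (Itga2b, Itgb3, Gp1ba and Nfe2, at 0.67 to 0.76). Over all tested genes the shares that rose were 10.5% and 12.8%. Itgb3 was the most abundant of the markers, at a mean of 63.7 CPM over the 12 libraries. The ratio of Ppbp to Pf4 was 0.0459 to 0.586 in the 6 PBS libraries and 0.316 to 1.27 in the 6 LPS libraries, and was lowest in WT PBS replicate 5 and Adm+/- PBS replicate 6.

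**Figure D3:**
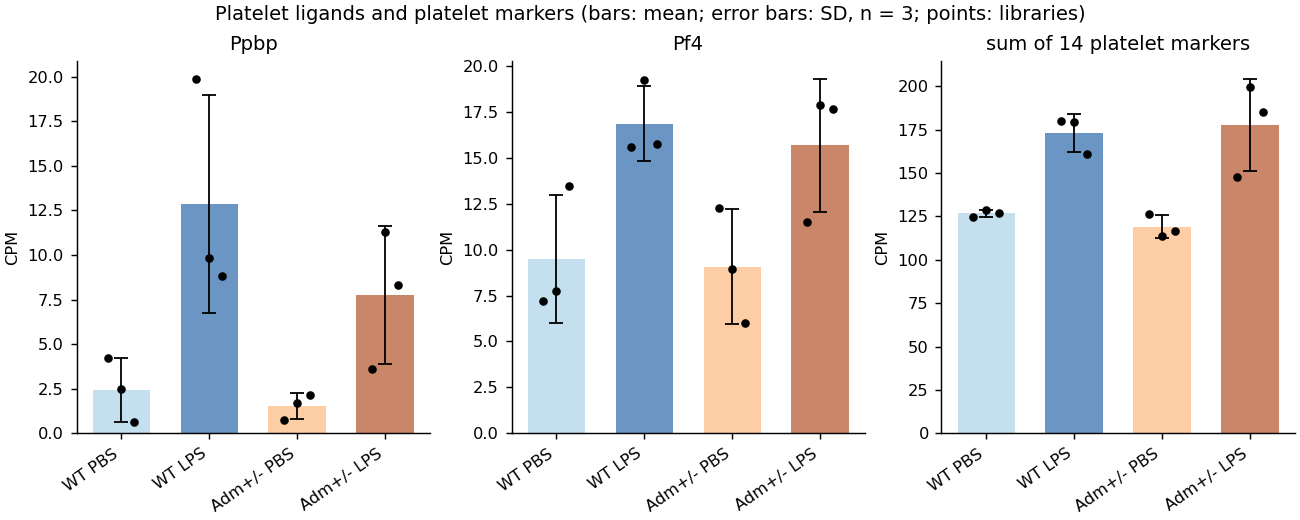
Ppbp, Pf4 and the summed level of 14 platelet markers in CPM, by group. Bars are means, error bars are SD (n = 3) and points are libraries. Mean Ppbp was 12.8 CPM in WT LPS against 2.44 CPM in WT PBS, whereas mean Pf4 was 16.8 against 9.48 CPM and the marker sum 173 against 127 CPM.

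Cxcr2, the receptor, rose in both genotypes, and its levels under LPS overlapped between them. It was at 2.21, 8.93 and 0.680 CPM in WT PBS, 22.5, 15.9 and 30.8 CPM in WT LPS, 1.37, 1.35 and 1.39 CPM in Adm+/- PBS, and 18.9, 20.4 and 19.3 CPM in Adm+/- LPS. LPS libraries lay above PBS libraries in both genotypes. The log2 fold change was 2.53 ± 0.59 in WT mice (edgeR adjusted p = 0.0121) and 3.83 ± 0.65 in Adm+/- mice (edgeR adjusted p = 0.00120), and the WT call was lost with only the 6 WT libraries in the fit (edgeR adjusted p = 0.0822). Without WT PBS replicate 4, the PBS library highest in Cxcr2, the WT value was 3.92, close to that of the Adm+/- mice.

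Neutrophil transcripts, like Cxcr2, were higher under LPS than under PBS, but they did not rank the WT LPS libraries as Cxcr2 did. The sum of 12 markers of mature neutrophils was 36.5 to 156 CPM over the 6 PBS libraries, with the highest in WT PBS replicate 4, and 1252 to 2250 CPM in WT LPS and 1298 to 1569 CPM in Adm+/- LPS. Of these markers 11 rose in WT mice and 12 in Adm+/- mice. The most abundant were S100a9 (4.71 and 5.49 as log2 fold changes in WT and Adm+/- mice), S100a8 (5.17 and 5.86) and Cd177 (4.22 and 5.08). All 6 tested genes of neutrophil precursor granules rose in both genotypes, led in level by Ltf, Ngp and Camp. The level of Cxcr2 per 1000 CPM of the mature markers was 18.6 to 57.1 CPM under PBS and 9.998 to 21.1 CPM under LPS. Against the marker Csf3r alone, the ratio of Cxcr2 was 0.0780 to 0.657 under PBS and 0.246 to 0.368 under LPS. Cxcr1, the other neutrophil receptor of the family, was barely detected, with 0 to 22 reads per library.

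The second question was whether the genotypes differed. Under PBS 0 of the 8 genes passed the edgeR test, as did 0% of all tested genes, with 2 of the 8 at an unadjusted p below 0.05 (Cxcl2 and Cxcr2) and 344 of all genes. DESeq2 and limma-voom also called 0 of the 8 there. The fitted log2 difference of Cxcr2, Adm+/- against WT, was -1.53 ± 0.64 (edgeR adjusted p = 0.999) and rested on WT PBS replicate 4, being -0.15 without it. For Cxcl2 the WT PBS libraries held 5, 19 and 1 reads and the Adm+/- PBS libraries 1, 0 and 0, a ratio of pooled reads per pooled library size of 29.5 with a 95% counting interval of 4.83 to 1210 (exact). The fitted log2 difference was -4.44, and -2.97 without WT PBS replicate 4, which held 19 of the 25 reads. The counting interval does not cover the spread between mice, and the edgeR adjusted p was 0.999.

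Under LPS 0 of the 8 passed edgeR's test between genotypes. Over all tested genes 2.05% passed in either direction, 52 of them higher and 273 lower in Adm+/- mice. An unadjusted p below 0.05 was found for 4 of the 8 and for 2275 of the 15885 genes. The levels of 5 of the 8, Cxcl1, Cxcl2, Cxcl3, Cxcl5 and Cxcl15, were higher in every Adm+/- LPS library than in any WT LPS library, as were those of 12.2% of all genes. Fitted log2 differences, Adm+/- against WT, were 2.36 ± 0.62 for Cxcl1 (edgeR adjusted p = 0.0743), 2.23 ± 0.59 for Cxcl2 (0.0769), 2.45 ± 0.62 for Cxcl3 (0.0663) and 1.72 ± 0.54 for Cxcl5 (0.137). The 95% intervals of these 4 values ran from 0.54 at the lowest bound, of Cxcl5, to 3.81 at the highest, of Cxcl3. The other 4 genes had values nearer to 0, at 0.37 ± 0.28 for Cxcl15, -0.73 ± 0.56 for Ppbp, -0.10 ± 0.29 for Pf4 and -0.24 ± 0.54 for Cxcr2 (edgeR adjusted p = 0.659 to 0.955).

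These calls under LPS depended on the tool and on single libraries. DESeq2 called Cxcl1 and Cxcl3 (adjusted p = 0.00720 for both), and limma-voom called Cxcl1, Cxcl2 and Cxcl3 (adjusted p = 0.0274, 0.0239 and 0.0384). Without WT LPS replicate 9, the WT library highest in these ligands, edgeR called the same 3 genes, at 3.62, 3.15 and 3.81 (adjusted p = 0.00722, 0.0206 and 0.00722). Without WT PBS replicate 5 it called Cxcl2 (adjusted p = 0.0462). All 4 values stayed above 0 under every alternative run, from a lowest of 1.24 for Cxcl5 without WT LPS replicate 11. An exact permutation test of 3 against 3 mice cannot go below a two-sided p of 0.1 for a single gene.

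**Figure D4:**
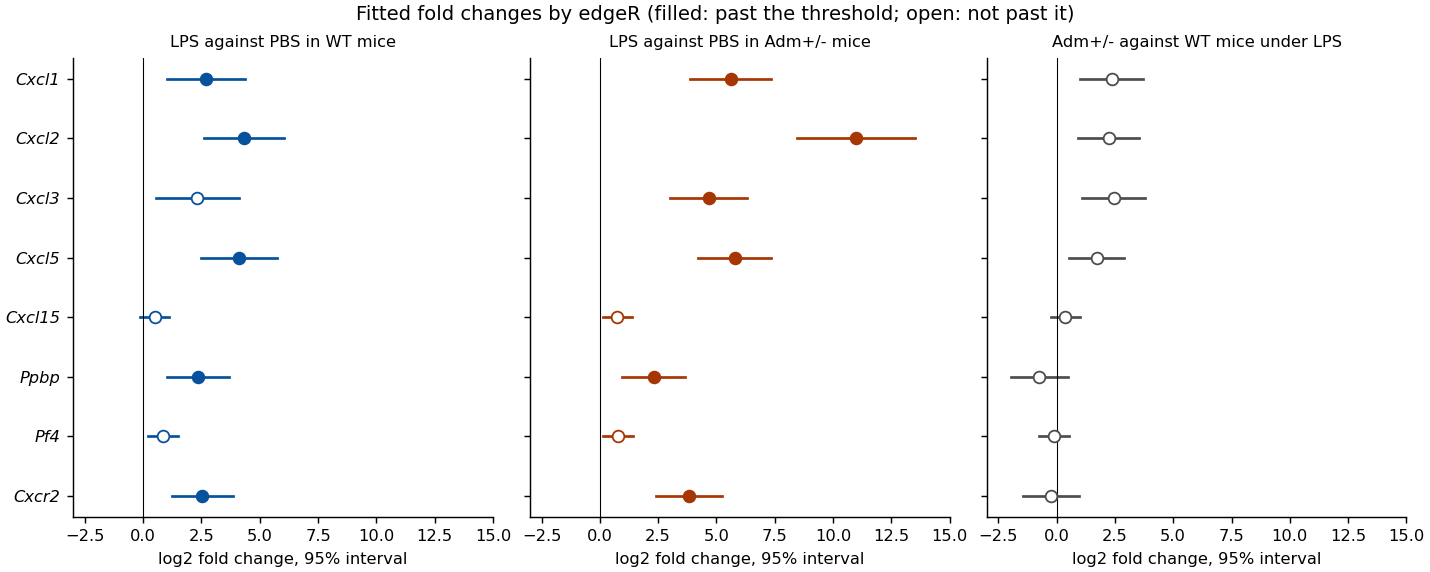
Log2 fold changes (edgeR) with 95% intervals for the 8 genes in the LPS response of WT mice, the LPS response of Adm+/- mice and the difference of Adm+/- from WT mice under LPS, on the same axis. Filled points passed the threshold. The Cxcl2 value of Adm+/- mice (10.98) rests on 1 PBS read, and the right-hand intervals of Cxcl1, Cxcl2, Cxcl3 and Cxcl5 lie above 0 although none passed after adjustment.

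The difference between the LPS responses of the genotypes, tested as an interaction, was called for 0 of the 8 genes by edgeR. Over all tested genes it was called for 0.145%, with 0 values above 0 and 23 below. At an unadjusted p below 0.05 there were 1247 of the 15885 genes and 2 of the 8, Cxcl1 with 2.90 ± 1.15 (edgeR adjusted p = 0.539) and Cxcl2 with 6.67 ± 1.83 (edgeR adjusted p = 0.327). DESeq2 called Cxcl2 (adjusted p = 0.0154) and limma-voom called 0. The Cxcl2 value carries the single PBS read of the Adm+/- mice, and its size depends on the prior count. The values were 2.34 ± 1.20 for Cxcl3, 1.65 ± 1.14 for Cxcl5 and 1.29 ± 0.84 for Cxcr2, and between -0.05 and 0.27 for Ppbp, Pf4 and Cxcl15 (edgeR adjusted p = 0.709 to 1.0). Without WT PBS replicate 4 the values of Cxcl5 and Cxcr2 were 0.48 and -0.088, and without WT LPS replicate 9 that of Cxcl3 was 3.70. The 95% intervals of the last genes were -1.94 to 1.85 for Ppbp, -0.95 to 0.87 for Pf4 and -0.61 to 1.14 for Cxcl15.

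Ligand and receptor levels did not rank the LPS libraries alike. The summed level of Cxcl1, Cxcl2, Cxcl3 and Cxcl5 was 31.7, 14.51 and 3.86 CPM in WT LPS replicates 9, 10 and 11 and 68.9, 90.7 and 64.3 CPM in Adm+/- LPS replicates 1, 2 and 12, against 0.676 to 2.57 CPM in the PBS libraries. WT LPS replicate 11, the lowest of the 6 LPS libraries in these ligands, was the highest in Cxcr2 (30.8 CPM). The ratio of the sum to Cxcr2 was 1.41, 0.914 and 0.125 in WT LPS and 3.64, 4.45 and 3.33 in Adm+/- LPS, with no overlap. With 6 LPS libraries in 2 groups no correlation within a group was computed.

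**Figure D5:**
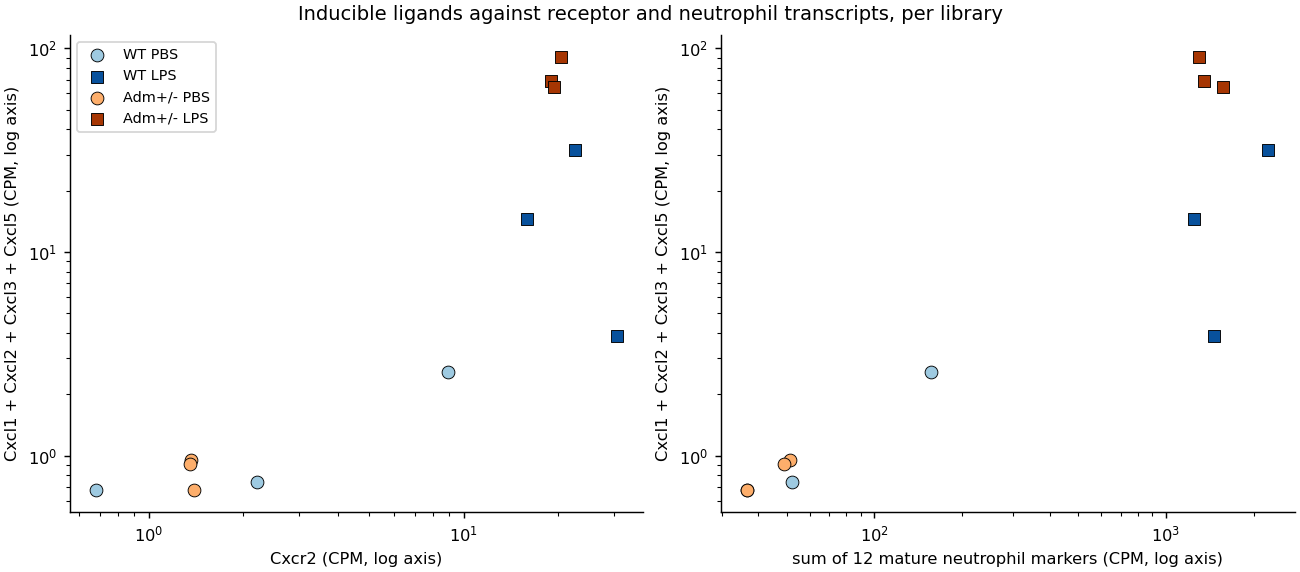
Summed level of Cxcl1, Cxcl2, Cxcl3 and Cxcl5 (CPM) against Cxcr2 (left) and against the sum of 12 mature neutrophil markers (right), all on log axes, with 1 point per library. The 6 LPS libraries share a narrow range of Cxcr2 (15.9 to 30.8 CPM) while their ligand sums run from 3.86 to 90.7 CPM, and 2 PBS points (WT replicate 5 and Adm+/- replicate 8) lie on top of each other on the right.

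Genes around these ligands in the pathway were read from lists. Among 7 tested CXC chemokines that bind other receptors, 4 rose and 1 fell in WT mice, and 5 rose and 1 fell in Adm+/- mice. Cxcl12, which holds cells through Cxcr4, was the one that fell (-0.68 and -0.70 as log2 fold changes in WT and Adm+/- mice). Cxcl16 rose by 1.15 and 1.66, and Cxcl10, an interferon-induced attractant of T cells, rose by 3.69 and 6.03. Ackr1, an atypical receptor of venules that binds Cxcl1 and Cxcl5 among others, rose by 3.85 and 5.51. It was at 0 to 0.311 CPM in WT PBS and 0.996 to 6.32 CPM in WT LPS, and at 0.0526 to 0.239 CPM in Adm+/- PBS and 5.11 to 6.17 CPM in Adm+/- LPS, so that the genotypes overlapped under LPS.

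Of 18 tested inducers and regulators of the ligands, 11 rose in WT mice and 14 in Adm+/- mice. In level the list was led by Nfkb1 (0.30, not past the threshold, and 0.71 in WT and Adm+/- mice), Nfkbia (1.26 and 2.64) and Tnfaip3 (1.88 and 3.30), a subunit and 2 inhibitors of NF-kappa B signalling. Between genotypes under LPS edgeR called 1 gene of this list, the cytokine Csf2, at 1.42 higher in Adm+/- mice (edgeR adjusted p = 0.0494), while DESeq2 called 4 and limma-voom 1. Csf2 was named after its value was seen. The median log2 fold change of the list was 1.02 in WT mice and 1.80 in Adm+/- mice. Il17a and Il17f did not pass the filter on low counts.

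The 18 genes of signalling downstream of Cxcr2 held both widely expressed and leukocyte genes. Of the former, Gnai2, Gnb1 and Arrb1, the most abundant of the list, did not pass the threshold in either genotype (-0.24 to 0.28). In WT mice 8 genes rose and in Adm+/- mice 7, among them the leukocyte genes Rac2 (2.09 and 2.20), Vav1, Fgr, Lyn, Pik3cg and Pik3r5 (2.29 and 3.19) in both, with Arrb2 in WT mice. Plcb2 and Prex1, also used by leukocytes, did not pass in either genotype, at 0.12 and 0.02 in WT mice and -0.36 and -0.33 in Adm+/- mice. The genes named here beyond the most abundant were chosen after their values were seen. Neutrophil markers rose in the same libraries, and their part in these values was not tested. Among 9 tested genes of ligand processing and retention, 4 rose in WT mice and 6 rose and 1 fell in Adm+/- mice. The 4 of WT mice were the neutrophil proteases Mmp8, Mmp9, Ctsg and Prtn3, of which all but Mmp9 are also on the neutrophil lists, and they rose in Adm+/- mice with Sdc4 and Tnfaip6. Of the most abundant, Sdc4, a heparan sulphate proteoglycan that holds chemokines at the cell surface, was at 0.68 in WT mice (edgeR adjusted p = 0.0627) and rose by 1.49 in Adm+/- mice, Sdc1 was at -0.10 and 0.13, and Dpp4, a protease that trims chemokines, fell by 0.72 in Adm+/- mice and was at -0.32 in WT mice (edgeR adjusted p = 0.262).

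Markers of other lung cells gave a background for these changes, with 1127 of the 15885 tested genes lower in WT mice and 1933 lower in Adm+/- mice, beside the shares of higher genes given above. Of 13 monocyte and macrophage markers (led by Csf1r, Mrc1 and Mertk) 9 rose in WT mice, and 7 rose and Cx3cr1 fell in Adm+/- mice. Of 8 airway markers (led by Scgb1a1, Scgb3a2 and Cyp2f2) Cyp2f2 rose in WT mice and Tppp3 fell in Adm+/- mice by edgeR, while in Adm+/- mice DESeq2 called 2 higher and 1 lower and limma-voom called 0. Of 8 endothelial markers (led by Cdh5, Pecam1 and Kdr) Kdr and Sox17 fell in both genotypes and Tek in Adm+/- mice. Of 7 fibroblast markers (led by Col1a1, Col1a2 and Pdgfra) Dcn and Lum rose in WT mice and Tcf21 fell in Adm+/- mice by edgeR. In WT mice DESeq2 called 2 of them higher and 2 lower, and limma-voom 2 and 0. Of 6 erythroid markers (led by Hbb-bs, Hba-a1 and Hba-a2) 0 passed in either genotype by edgeR, DESeq2 or limma-voom, and 0 had an unadjusted p below 0.05. All 10 tested muscle markers (led by Acta1, Mylpf and Atp2a1) rose in WT mice, and Acta1 rose in Adm+/- mice, by edgeR. DESeq2 called 10 and 2 of them higher in WT and Adm+/- mice, and limma-voom 9 and 0. All 9 tested squamous markers (led by Krt4, Krt13 and Krt15) rose in WT mice and 0 in Adm+/- mice by edgeR (2 at an unadjusted p below 0.05), with 9 and 5 by DESeq2 and 0 and 0 by limma-voom. The markers named in this paragraph beyond the leading genes were chosen after their values were seen.

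The genes whose log2 levels followed each of the 8 most closely over the 12 libraries were listed by Pearson's r as a description. Nearest to Cxcl1 were Plscr1 (r = 0.99) and Pim1, to Cxcl2 Myd88 (0.99), Rab20 and Rbm47, to Cxcl3 Rela (0.99), Neurl3 and Gpr31b, and to Cxcl5 Cyp7b1 (0.99), Alpk1 and Selp. Nearest to Cxcr2 were Hif3a (0.98), Mmp8 and Retnlg, of which the last 2 are on the list of neutrophil markers. Ppbp was followed most closely by Sema3d (0.97), Mmrn1 and Rasgrp1, and Pf4 by Itga2b (0.95), a platelet integrin, Fam20c and Zfp800. For Cxcl15 they were Tspan7 (0.98), 9530077C05Rik and Bmpr2. All of these values share the same 12 libraries and the contrast of LPS with PBS.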

How the data were processed

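Total RNA of whole lung was sequenced after depletion of ribosomal RNA, with a directional kit. Per the labels and the study's methods, the authors trimmed reads with Trim Galore, aligned them with HISAT2 against mm10 and used featureCounts with a Gencode annotation. The deposited table holds raw counts without normalization or filter for 12 libraries, each from a separate mouse. The Gencode release, the strand option, the read length and the treatment of reads with several matches are not given in the sources used here. Reads carry no molecular identifiers, so intervals on reads cover counting error only.

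Counts of 21950 protein-coding genes were analysed in R 4.3.3 with edgeR 4.0.16. The 15885 genes that passed filterByExpr over the 4 groups were scaled by TMM and fitted with 1 coefficient per group and 8 residual degrees of freedom, and 5 contrasts were tested with glmQLFTest. SEs were taken from the F statistics, log2 CPM used a prior count of 2, and the thresholds (adjusted p of 0.05, log2 change of 0.5) follow the study, whose own test was limma. The scripts were tested on simulated data. The 12 pairs of libraries within groups differed by more than sampling noise. Alternatives were RLE size factors, DESeq2 1.42.0, limma-voom 3.58.1, glmTreat, other filters, all annotated genes, fits of 6 libraries and the omission of each library. The omission of the 2 PBS libraries with the highest Gm26917 share was chosen after seeing the data. Library numbers are not shared between groups.

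Gene positions and transcripts came from Gencode M21 (mm10), in which 52403 genes (99.7%) of the table were found, and promoters from RefSeq (GRCm38.p6). For length, coding sequence and 3′ untranslated region, the protein-coding transcript with the longest coding sequence was used. The members and gene lists were chosen with earlier results of these data known. Besides the 8 members, the rule named the 3 genes with the most similar pattern for each, the 3 most abundant genes of each list and any gene called against the direction of its list. Some genes that the rule or the lists hold are not reported here. The lists were the other CXC chemokines, other receptors, inducers and regulators, signalling downstream of Cxcr2, ligand processing and retention, and markers of mature neutrophils, neutrophil precursors, platelets, monocytes and macrophages, type II pneumocytes, airway epithelium, endothelium, fibroblasts, erythroid cells, skeletal muscle and squamous epithelium.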

Additional observations from a re-analysis of the deposited data

How the results depend on the processing

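No paired analysis was possible because the library numbers are not shared between the groups. Of 827 values of single genes under an alternative, 757 kept their direction and their side of the threshold, 13 lost the call, 29 gained one and 28 changed sign, none of them a value past the threshold. The number of the 8 genes called for LPS in WT mice was 5, and was 7 with DESeq2, 3 with glmTreat, 2 with only the 6 WT libraries, where Cxcl3 did not pass the filter, and 3 to 6 when each library was left out (3 without WT LPS replicate 9). In Adm+/- mice it was 6, and 5 to 8 throughout. For the difference between the responses it was 0, and 1 with DESeq2. Under LPS between genotypes it was 0, and 2 with DESeq2, 3 with limma-voom and 0 to 3 when each library was left out (3 without WT LPS replicate 9). Under PBS it was 0 throughout. The number of all genes called moved by over 1.5 times for LPS in WT mice (2791, and 1001 with glmTreat, 1152 with 6 libraries and 1443 without WT LPS replicate 9), for LPS in Adm+/- mice (3968, and 1695 with glmTreat), for the difference between responses (23, and 168 with DESeq2, 13 with glmTreat, 1 with limma-voom and 5 to 65 when each library was left out) and for the genotypes under LPS (325, and 803 with DESeq2, 133 with glmTreat, 548 without the 2 PBS libraries of high Gm26917 share and 81 to 573 when each library was left out).

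Sign changes were all in log2 values near 0 or of wide error. When each library was left out, the difference between responses ran from -0.71 to 0.42 for Ppbp, from -0.36 to 0.23 for Pf4 and from -0.088 to 1.77 for Cxcr2. Adm+/- against WT under PBS ran from -0.90 to 0.30 for Cxcl1, from -0.18 to 0.36 for Cxcl3, from -0.30 to 1.23 for Cxcl5, from -0.20 to 0.37 for Cxcl15 and from -0.33 to 0.27 for Pf4, and under LPS from -0.21 to 0.078 for Pf4 and from -0.45 to 0.026 for Cxcr2. Without the 2 PBS libraries of high Gm26917 share the difference between responses was 0.078 for Ppbp, and Adm+/- against WT under PBS was -0.26 for Cxcl5, -0.054 for Cxcl15 and 0.0038 for Pf4. The cause was not tested. At 0 to 19 reads per PBS library, Cxcl2, Cxcl3, Cxcl5 and Cxcl1 were near the floor of the depth, which limits the precision of their fold changes.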
